A study of Mus musculus with 67 samples.

Results

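Light and control 4-cell mouse embryos were compared by the labelled group and stage, which gave 14 of the 67 libraries of the series. The control group held 6 libraries (replicates 1 to 6) and the light group held 8 (replicates 1, 5, 6, 7, 9, 11, 13 and 14). All embryos were C57BL/6 and came from in vitro fertilization. The light group had been lit with a full-spectrum bulb at the 2-cell stage and was then cultured in the dark, and the control group was kept in the dark throughout. No lamp was on during the 4-cell stage itself, so the comparison reads RNA after a division that followed the exposure. The methods describe single cells picked by mouth pipette from trypsin-treated embryos, while the labels number embryos. The sources do not say whether any 2 libraries came from the same embryo or the same mating, so p-values measure the spread between these libraries.

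The mouse embryo switches on its own genome at the 2-cell stage, after a long period in which it lives on RNA stored in the egg. By the 4-cell stage most stored messages have been removed, a burst of short-lived 2-cell transcripts has been silenced, and the embryo builds up messages for ribosomes, splicing and energy production. Ribosomal protein genes share a pyrimidine-rich start site that couples their translation to growth signals. Mitochondria of the early embryo are inherited from the egg and divide little before implantation, and their genome encodes a small set of subunits of the respiratory chain.

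Sequencing gave 952397 to 7072598 recovered reads per library, of which 377385 to 2413705 lay outside CT010467.1 and Gm42418, a pair of genes that take up ribosomal RNA reads. Values are reads divided by a size factor for each library, so the amount of RNA in a cell was not measured. Control replicates 1 and 2 stood apart from the other 12 libraries. Their Y-linked level was 0 and 1.46 CPM, counted outside the ribosomal RNA genes, against 77.0 to 353 in the other controls and 130 to 283 in the light group. Their Xist values, from the RNA that coats the inactive X chromosome, were 397 and 521, against 1.64 to 38.9 elsewhere. Their ratio of Gm42418 to CT010467.1 was 4.55 and 4.35, against 1.61 to 1.98 in the other controls and 1.43 to 1.63 in the light group. That ratio also differed between the groups without them, by -0.28 (exact permutation test, two-sided, p = 0.00404). Control replicate 3 lay nearer the light group than the other controls did. Its median correlation across genes with light libraries was 0.844, against 0.729 to 0.793 for the other controls. With controls it was 0.788, inside the 0.732 to 0.791 of the others. Many, though not all, of the counts that these libraries move are given with and without them. Of the 48 called genes that the naming rule chose 21 were not called without control replicates 1 and 2. Cumulus and sperm markers were near the floor. Of 14 cumulus markers 7 were at 0 in all 14 libraries, Fshr and Cyp19a1 among them, and the summed level ranged from 16.2 to 144 in control and from 39.7 to 102 in light, most of it from Amhr2. Of 16 sperm markers 6 were at 0 in all libraries, Tnp1 and Acr among them, and the summed level ranged from 21.3 to 64.8 in control and from 25.5 to 50.6 in light, most of it from Odf2.

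The groups differed over the whole profile. Group membership accounted for 14.5% of the squared distance between libraries (exact permutation test over 3003 regroupings, one-sided, p = 0.000333, the smallest this design can give). In the fit of all 14 libraries, 168 of 15010 genes were higher in light and 50 were lower (limma, adjusted p under 0.05 and at least 2-fold), or 1.12% and 0.333% of the genes tested and 1.45% together. Without control replicate 3 the same fit called 387 genes higher and 384 lower of 14839, or 2.61% and 2.59% and 5.2% together, and 216 of the 218 genes were among them. Without control replicates 1 and 2 it called 292, of which 126 were shared, with 1.6% of genes higher and 0.397% lower. The groups did not overlap at all for 84 genes, or 0.56% of those tested. Of the 218 calls, 49 were kept whichever single library was left out, 47 of them higher and 2 lower in light, Ssr1 and Lars2. Lower genes were 22.9% of the 218 calls. The split was 217 higher and 109 lower with quantile normalization, 80 and 68 with edgeR and 370 and 372 with DESeq2, and the median difference of all genes, 0.13 here, was 0.01, 0.01 and -0.03 with these.

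The smallest adjusted p among the genes that rose was that of Sap30, a subunit of the SIN3 complex that takes acetyl groups off histones (chr8:57482707-57487860 in GRCm38, minus strand). Its value was 0 to 17.0 in control, with a median of 4.98, and 67.2 to 144 in light, with a median of 86.0. Every light library lay above every control library, control replicate 3 included. The difference was 4.10 ± 0.58 on the log2(value + 1) scale (SE, adjusted p = 0.00166). Gcm1, a transcription factor best known from the placenta, was 0 to 8.74 in control (median 0.489) and 9.89 to 184 in light (median 32.1), again without overlap, a difference of 4.19 ± 0.77 (adjusted p = 0.0122). Dapk3, a death-associated protein kinase, was 0 to 37.6 in control (median 2.98) and at least 40.5 in light (median 67.1). The highest control was replicate 3, the groups did not overlap, and the difference was 3.97 ± 0.66 (adjusted p = 0.00644).

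Klf5, a transcription factor of the pluripotent and trophectoderm lineages, was already well expressed. Its value was 60.5 to 217 in control (median 80.7) and 236 to 607 in light (median 400). The groups did not overlap and the difference was 2.09 ± 0.33 (adjusted p = 0.00453). Hspa4, a large heat shock chaperone, was 71.4 to 336 in control (median 176) and 346 to 884 in light (median 495), without overlap, a difference of 1.70 ± 0.32 (adjusted p = 0.0141). Zfp771, a zinc-finger gene, was 0 to 4.56 in control and 11.6 to 41.3 in light, also without overlap (3.66 ± 0.65, adjusted p = 0.0121).

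**Figure D1:**
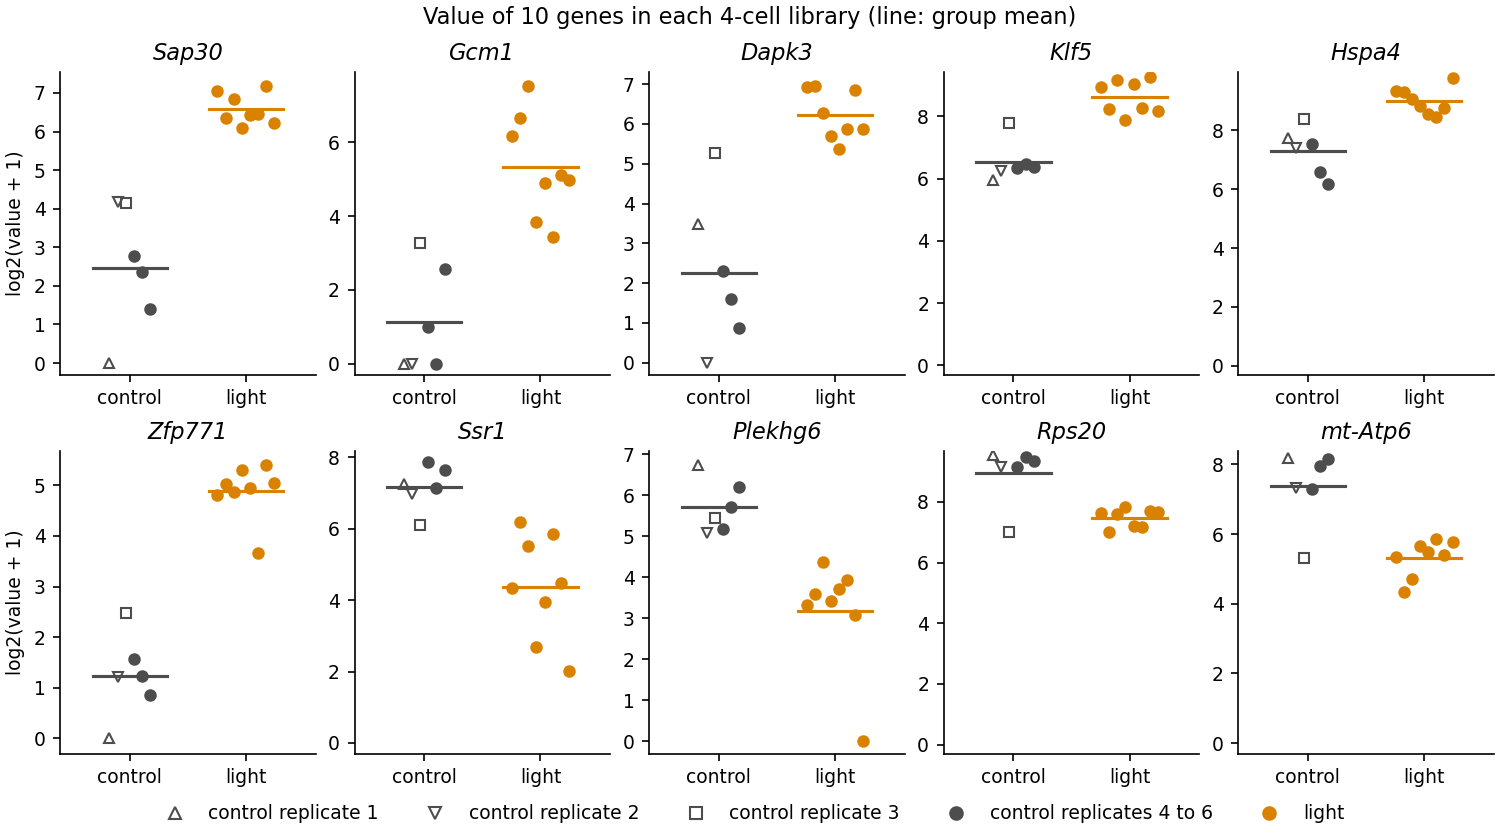
Value of 10 genes in each 4-cell library on the log2(value + 1) scale, with 1 point per library and a line at the group mean. Open symbols mark control replicates 1, 2 and 3. Sap30, Gcm1, Dapk3, Klf5, Hspa4 and Zfp771 are higher in all 8 light libraries than in any control, and control replicate 3 (open square) lies near the light libraries for Rps20 and mt-Atp6.

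The other large rises came from low or uneven control values. Foxi3, a forkhead factor of ectoderm, was 0 to 185 in control (median 12.2) and 94.0 to 194 in light (median 155). The highest control was replicate 3, which lay inside the light range, and the difference was 3.76 ± 0.70 (adjusted p = 0.0139). Usp29 and Zim3 lie on opposite strands of the same imprinted region and overlap in the annotation, so their reads cannot be told apart without strand. Usp29 rose by 3.76 ± 0.80 and Zim3 by 3.74 ± 0.79 (adjusted p = 0.0179 and 0.0178). Ptprs, a receptor phosphatase, was under 1 in all controls, at 0 to 0.852, and 1.52 to 55.9 in light. The highest control value and the lowest light value were each 1 read, in control replicate 1 and light replicate 9. Nags, the enzyme that makes the activator of the urea cycle, was 0 in 5 of 6 controls, and its light median was 21.4. Gramd1b, Spata5l1 and Clip2 completed the 12 largest rises, at 3.51 to 3.70 on the same scale.

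Ssr1 fell, and kept its call whichever library was left out. It is a subunit of the complex that sits beside the protein channel of the endoplasmic reticulum. Its value was 67.3 to 235 in control (median 145) and 3.04 to 72.0 in light (median 20.1). Only the lowest control, replicate 3, lay within the light range, and the difference was -2.79 ± 0.56 (adjusted p = 0.017). Plekhg6 was 32.8 to 106 in control (median 47.2) and 0 to 19.8 in light (median 10.4), without overlap (-2.55 ± 0.63, adjusted p = 0.0399). Lama5, a laminin chain of basement membranes, was 17.9 to 149 in control (median 62.5) and 3.04 to 20.2 in light (median 9.76), a fall of 2.53 ± 0.58. Mettl1, which methylates transfer RNA, and Dhx35, an RNA helicase, fell by 2.49 ± 0.63 and 2.28 ± 0.60. Hcrt, Oas1h, Clcn6, Dirc2 and Sssca1 made up the rest of the 12 largest falls with mt-Co2 and mt-Atp6. Without control replicates 1 and 2, Ssr1 (adjusted p = 0.018) and Lama5 (0.0193) were still called, while Plekhg6, Mettl1 and Dhx35 were not (0.0651 to 0.117). Of the 14 fits that leave out 1 library, Lama5 was not called in 5, Plekhg6 and Mettl1 in 11 each and Dhx35 in 13.

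Ribosomal protein genes had lower estimates in light almost throughout. Of 89 cytosolic members tested 5 fell and none rose, against 0.333% of all genes that fell, and the list's median difference was -0.78, against 0.13 for all genes. The estimate was negative for 86 of the 89. Without control replicate 3 the count was 49 falls, where 2.59% of all genes were lower, and a median of -1.15. Without control replicates 1 and 2 it was 2 falls, in Rpl4 and Rps4x, where 0.397% of all genes were lower, and a median of -0.78. Under the median ratio, quantile, CPM, edgeR and DESeq2 scalings the median stayed between -0.88 and -0.69, and 4 to 24 members fell. Relative to the median of all genes it stayed between -0.91 and -0.70.

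Rps20, a small-subunit protein, shows the pattern. Its value was 127 to 746 in control (median 609) and 129 to 228 in light (median 196). Control replicate 3 was the lowest of all 14, every other control lay above every light library, and the difference was -1.46 ± 0.34 (adjusted p = 0.0287). Rpl4, a large-subunit protein, was 1024 to 2414 in control (median 1871) and 682 to 1134 in light (median 864), a fall of 1.03 ± 0.23 (adjusted p = 0.0219). Rpl35 fell by 1.42 ± 0.36, Rps9 by 1.12 ± 0.28 and the X-linked Rps4x by 1.03 on the log2(value + 1) scale. Without control replicates 1 and 2 Rpl4 was still called (adjusted p = 0.0253), while Rps20, Rps9 and Rpl35 were not (0.0648 to 0.109). With 1 library left out, Rps20 was not called in 4 of 14 fits, Rpl4 in 5, Rps9 in 12 and Rpl35 in 13. Summed over all 89 members, the value was 18202 to 76954 in control and 22783 to 41558 in light. The lowest control sum was replicate 3, and the next lowest, 44529, was above the highest light sum.

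The start sites of these genes are shown because members of this class carry a pyrimidine tract there. Each line holds 60 bases, 40 before and 20 from the annotated start, 5′ to 3′ on the gene's strand, from RefSeq (GRCm38.p6), and capitals mark CTTTCC or its reverse complement GGAAAG. Rpl35 lies at chr2:39005112-39005171 on the minus strand, Rpl4 at chr9:64173347-64173406 on the plus strand, Rps4x at chrX:102189372-102189431 on the minus strand and Rps9 at chr7:3704001-3704060 on the plus strand.
Rpl35: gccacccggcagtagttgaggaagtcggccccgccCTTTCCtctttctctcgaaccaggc
Rpl4: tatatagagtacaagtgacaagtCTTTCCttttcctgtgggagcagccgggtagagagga
Rps4x: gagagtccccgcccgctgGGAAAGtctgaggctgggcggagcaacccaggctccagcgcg
Rps9: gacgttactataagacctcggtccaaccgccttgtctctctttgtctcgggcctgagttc
In this window 11 of the 64 ribosomal protein genes matched (17.2%) held CTTTCC on the gene's strand, against 769 of 27025 genes (2.85%), and 1 held GGAAAG, against 654 (2.42%). Rps20 was not matched. A match is a description of the letters only.

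Among energy genes the calls were fewer. Of 83 nuclear subunits of the respiratory chain none was called, with a median of -0.71, and 72 were lower by estimate. Without control replicate 3, 21 fell, beside 2.59% of all genes, and the median was -1.07. Without control replicates 1 and 2, 1 fell, beside 0.397% of all genes, and the median was -0.83. Ndufa4 was 37.3 to 153 in control (median 136) and 25.4 to 69.7 in light (median 32.5), with a difference of -1.52 ± 0.42 (adjusted p = 0.0596). Of 77 mitochondrial ribosomal proteins none was called (median -0.44), and 5 fell without control replicate 3 (Mrpl14, Mrpl20, Mrpl21, Mrpl57 and Mrps14). Without control replicates 1 and 2, 2 were called higher and 0 lower, with a median of -0.74. In that fit 1.6% of all genes were higher. Mrpl11 and Mrps9, members named in the study, differed by -0.93 ± 0.48 and -0.80 ± 0.45 (adjusted p = 0.318 and 0.36). Mtrf1l, a mitochondrial release factor relative also named there, was 0 to 6.84 in control (median 0.489) and 0 to 29.9 in light (median 13.1), with a difference of 2.28 ± 0.82 (adjusted p = 0.15).

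Of 26 mitochondrially encoded genes tested 4 fell and none rose, all 4 of them protein genes, against 0.333% of all genes that fell. The count was 9 without control replicate 3 (2.59% of all genes) and 2 without control replicates 1 and 2 (0.397%). The 13 protein genes had a median of -1.47, the 11 transfer RNAs -0.45 and the 2 ribosomal RNAs 0.04. The protein median counts genes with low and high values alike and is the value of mt-Nd4l, with a control median of 11.2. mt-Nd1 and mt-Nd5, with higher values (control medians 3707 and 2872), differed by -0.90 and -0.48. mt-Co3 and mt-Nd3, with lower values (50.6 and 36.3), differed by -3.08 and -2.37. Control medians were also low for mt-Co2 (106) and mt-Atp6 (202), against 6135 for mt-Co1. Whether all reads of the genes with low values were counted was not tested. mt-Atp6, a subunit of ATP synthase, was 38.8 to 290 in control (median 202) and 19.1 to 57.6 in light (median 42.4), a fall of 2.05 ± 0.44 (adjusted p = 0.0179). Its reads overlap those of mt-Atp8 and mt-Co3. mt-Co2, a subunit of complex IV, fell by 2.24 ± 0.56, mt-Nd4, of complex I, by 1.26 ± 0.30, and mt-Cytb, of complex III, by 1.13 ± 0.26. Without control replicates 1 and 2 mt-Atp6 (adjusted p = 0.0325) and mt-Cytb (0.043) were still called. With 1 library left out, mt-Atp6 was not called in 1 of 14 fits, mt-Cytb in 3, mt-Nd4 in 9 and mt-Co2 in 12. mt-Co1, of complex IV as well, was 3444 to 7854 in control and 3340 to 8412 in light, with a difference of 0.08. The sum over all mitochondrially encoded genes was 35845 to 70521 in control and 29177 to 53804 in light, and mt-Rnr2, the large ribosomal RNA, was its most abundant member.

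Most members of the nuclear lists with lower estimates have short transcripts. With genes split into 5 equal classes by their longest coding transcript, 72 of 83 ribosomal protein genes and 70 of 81 nuclear respiratory genes lay in the shortest class. That class had a median difference of -0.10, and the other classes 0.21 to 0.28. Without the cytosolic and mitochondrial ribosomal and nuclear respiratory lists its median was -0.03, and it was -0.12 without control replicate 3 as well, -0.17 with edgeR and -0.30 without control replicates 1 and 2, when the other classes had medians of -0.06 to 0.09. The 43 histone genes with a length were as short, with 34 in that class, and their list had a median of 0.85. The part of transcript length in the lower values was not tested.

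**Figure D2:**
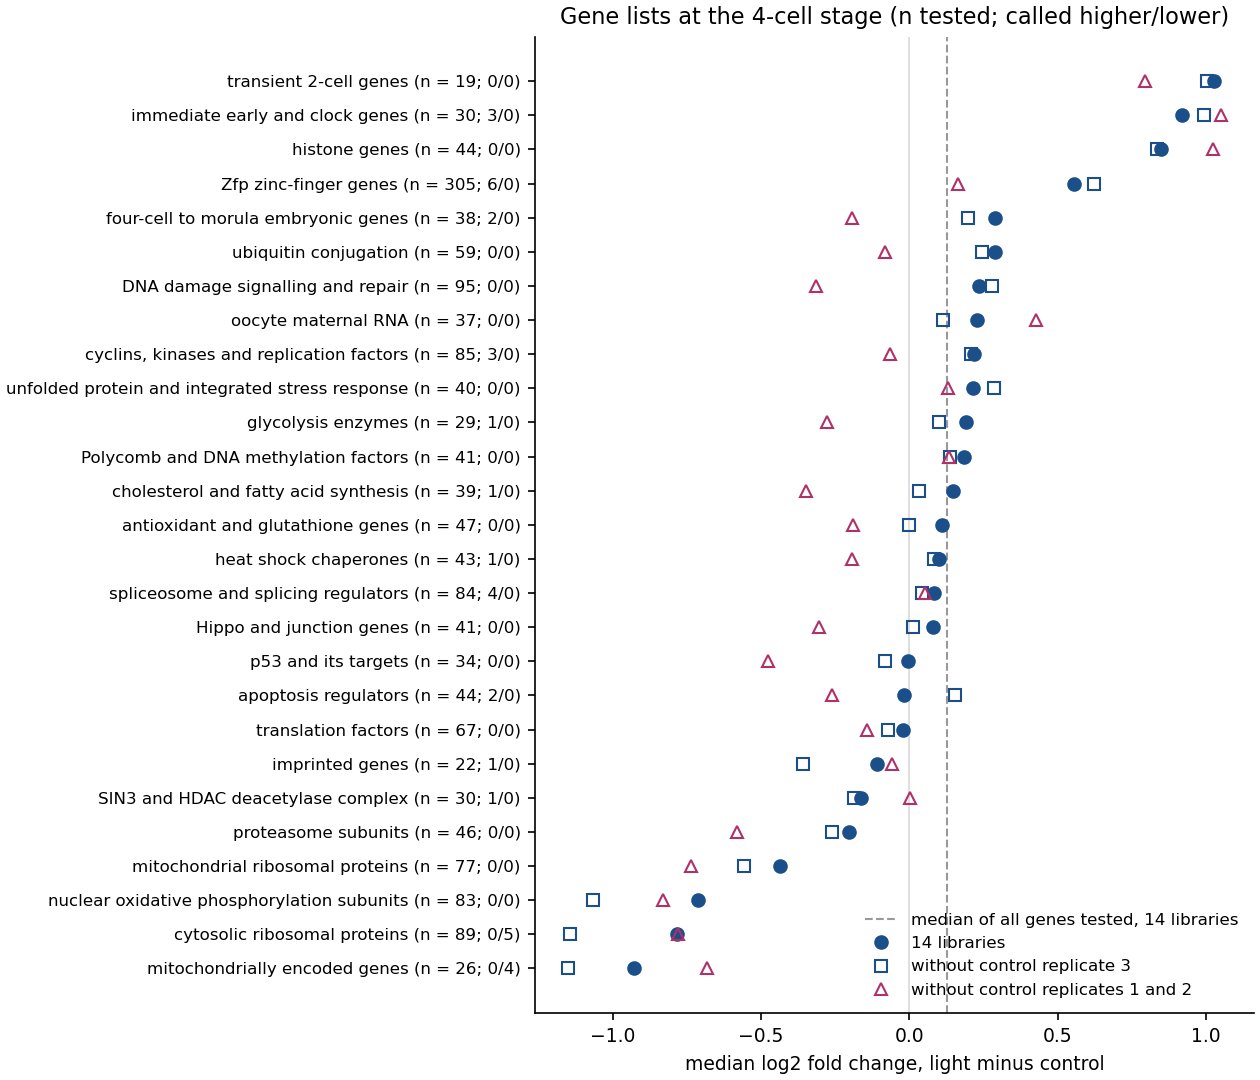
Median log2 fold change (light minus control) of 27 gene lists for 14 libraries, without control replicate 3 and without control replicates 1 and 2, with the number of genes tested and the numbers called higher and lower. The dashed line is the median of all genes (0.13). The 2 ribosomal, the nuclear respiratory and the mitochondrially encoded lists lie below 0 in all 3 fits, and the transient 2-cell, immediate early and histone lists lie above the line.

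Several groups had a few rises, to be read beside 1.12% of all genes that rose. Without control replicate 3, 2.61% of all genes rose and 2.59% fell, and without control replicates 1 and 2 it was 1.6% and 0.397%. With edgeR, 80 of 15008 genes rose and 68 fell. Of 84 splicing genes 4 rose and none fell, beside a median of 0.08. Without control replicate 3 it was 6 rises and 2 falls, and with edgeR 1 of each. They were Srsf2, Srsf6, Hnrnpu and Hnrnpa1, which bind RNA and guide splice site choice. Srsf2 was 69.4 to 562 in control (median 175) and 483 to 1183 in light (median 755), and only the highest control lay inside the light range, a rise of 2.04 ± 0.37 (adjusted p = 0.0121). Its reads may be shared with Mettl23 and Mfsd11 on the opposite strand. Hnrnpa1 was 573 to 1613 in control and 1113 to 3021 in light, a rise of 1.00 ± 0.25 that was not called without control replicates 1 and 2 (adjusted p = 0.12). Srsf7, which the study names among genes upregulated at the 2-cell stage, was 247 to 527 in control and 518 to 754 in light 4-cell libraries (0.81 ± 0.24, adjusted p = 0.0818). Ctnnbl1, a spliceosome-associated protein also named there, differed by 0.10 ± 0.31.

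Of 305 Zfp zinc-finger genes 6 rose and none fell (1.97%), with a median of 0.55. Without control replicate 3, 12 of the list rose, beside 2.61% of all genes. Without control replicates 1 and 2 it was 5 rises and 1 fall, beside 1.6% and 0.397% of all genes, and a median of 0.16. With edgeR it was 3 rises, beside 80 of 15008 genes. Beside Zfp771, Zfp622 was 10.8 to 490 in control (median 240) and 294 to 809 in light (median 706), and was called without control replicates 1 and 2 (adjusted p = 0.000286). Zfp428 rose by 2.85 ± 0.69, and the X-linked Zfp92, at 0 in all controls, had a light median of 5.87. Neither was called without control replicates 1 and 2 (adjusted p = 0.088 and 0.0611). With 1 library left out, Zfp622 was not called in 9 of 14 fits, Zfp428 in 9 and Zfp92 in 12. Of 85 cyclins, kinases and replication factors 3 rose: Aurkb, the kinase of the chromosomal passenger complex, by 1.91 ± 0.40, Ccna2, cyclin A2, by 1.18 ± 0.29, and Ccne1, cyclin E1, by 1.29 ± 0.33. Of the 14 fits that leave out 1 library, all called Aurkb, 9 did not call Ccna2 and 11 did not call Ccne1. Of 30 immediate early and clock genes 3 rose, and the list's median was 0.92. It was 2 rises without control replicates 1 and 2, and edgeR called none. Nr1d2, a nuclear receptor of the circadian clock, was 0.978 to 100 in control (median 15.7) and 60.3 to 227 in light (median 97.0), a rise of 3.07 ± 0.64. Myc, a growth regulator, had a median of 4.71 in control, with a lowest value of 0, and 18.4 to 404 in light (median 57.7), a rise of 3.29 ± 0.85. Btg1, an antiproliferative factor, rose by 3.18 ± 0.82. With 1 library left out, Nr1d2 was called each time, Myc was not called in 12 of 14 fits and Btg1 was not in 10.

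Stress and death genes were mostly not called. Of 95 DNA damage and repair genes none was called (median 0.23), of 34 p53 genes none (-0.01), of 47 antioxidant genes none (0.11) and of 40 unfolded protein response genes none (0.21). Without control replicate 3, 4 antioxidant genes and 1 p53 gene were called lower and 1 unfolded protein response gene higher. In that fit 2.59% of all genes were lower and 2.61% higher. The medians without control replicates 1 and 2 were -0.31 for DNA damage, -0.48 for p53 and -0.19 for antioxidant genes, against -0.07 for all genes. In the same order 1, 1 and 0 genes were called lower, beside 0.397% of all genes. Of 44 apoptosis regulators 2 rose, against 1.12% of all genes, namely Dapk3 and Casp6, an executioner caspase. It was 4 rises without control replicate 3, against 2.61% of all genes, and none with edgeR. Casp6 was 0 to 80.4 in control (median 11.0) and 23.5 to 95.5 in light (median 67.2), a rise of 2.94 ± 0.78 (adjusted p = 0.0494) that was not called without control replicates 1 and 2 (0.176). Of 43 chaperones Hspa4 was the 1 called, beside 3 rises and 2 falls without control replicate 3. Hsp90ab1, the most abundant member named, was 3053 to 9315 in control and 1816 to 4417 in light, 1.97-fold lower and so short of the 2-fold limit (-0.98 ± 0.24, adjusted p = 0.0406). Gpx1 and Prdx4, which remove peroxides, differed by -1.12 ± 0.43 and -1.23 ± 0.41 (adjusted p = 0.17 and 0.123), and both were called lower without control replicate 3 (0.0283 and 0.0359).

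Metabolic genes with calls were few. Pdk1, the kinase that holds back pyruvate dehydrogenase, was 0 to 0.978 in control and 0.86 to 17.6 in light. Its highest control value was 1 read, in control replicate 4. Acsl1, which activates long-chain fatty acids, was 0 to 10.3 in control and 10.6 to 38.2 in light, without overlap (3.05 ± 0.77, adjusted p = 0.0415), and was not called in 12 of the 14 fits that leave out 1 library, as was the case for Pdk1. Of 38 genes that are switched on between the 4-cell stage and the morula 2 rose, Gcm1 and Klf5, against 1.12% of all genes. The remaining lists held no call or 1 call each, including Polycomb factors, histones, proteasome subunits, ubiquitin conjugation, Hippo genes and translation factors. Of 44 histone genes none was called in the 14 libraries, and 6 rose without control replicate 3, beside 2.61% of all genes.

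The 4-cell libraries were placed on a line between the control 2-cell mean (0%) and the control 8-cell mean (100%). The line used 3394 genes whose control 2-cell and 8-cell values did not overlap and whose mean log2 values differed by at least 2. Control 4-cell libraries lay at 93.8% ± 4.94 (SD, n = 6, range 87.2 to 99.2) and light 4-cell libraries at 85.1% ± 2.78 (SD, n = 8, range 82.3 to 90.5). The difference was -8.69 percentage points (exact permutation test, two-sided, p = 0.002), and the ranges overlapped between 87.2 and 90.5. On the same line, and with no test, light 2-cell libraries lay above control ones, at 25.5% ± 9.26 (SD, n = 6) against 0% ± 6.10 (SD, n = 7), and light 8-cell libraries at 98.2% ± 3.22 (SD, n = 8) against 100% ± 4.82 (SD, n = 4). The positions nearest 100% were those of control replicates 1 and 2. Without them the difference was -6.10 (p = 0.0141, exact permutation test), and without control replicate 3 as well it was -5.32 (p = 0.0424, exact permutation test).

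**Figure D3:**
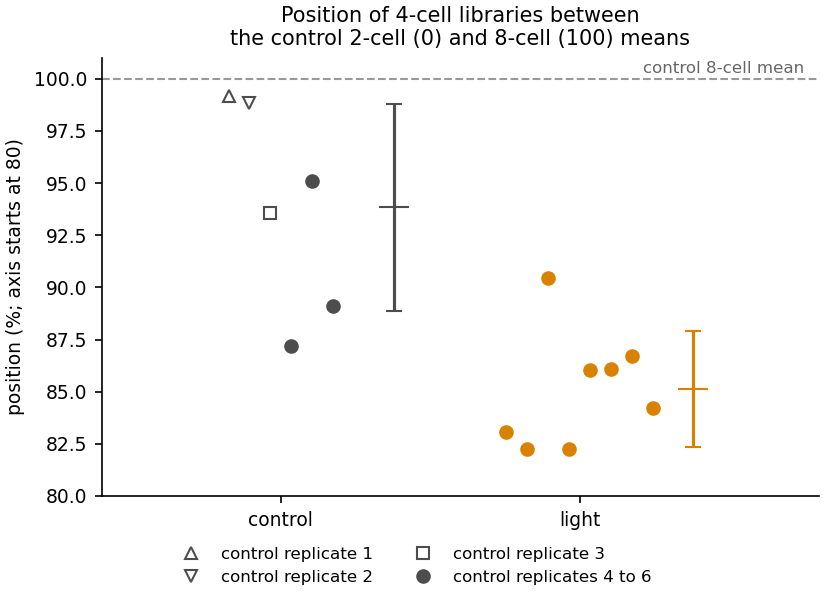
Position of each 4-cell library between the control 2-cell mean (0%) and the control 8-cell mean (100%), with the mean ± SD of each group beside the points and an axis that starts at 80%. Light libraries lie at 82.3% to 90.5% and control libraries at 87.2% to 99.2%, with control replicates 1 and 2 (open triangles) highest.

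Most of the genes on this line fall with development. Of 2619 falling genes tested at the 4-cell stage 31 were called higher in light and 1 lower, Gm9. The 1.18% higher was near the 1.12% of all genes, and their median difference was 0.35. Their position differed by -8.86 percentage points (exact permutation test, two-sided, p = 0.00366). Of 312 rising genes 8 were called higher (2.56%, against 1.12% of all genes) and 5 lower (1.6%, against 0.333%), namely Rps20, Rps4x, Cited1, Sssca1 and Gm5835, the median was -0.40, and the difference in position was -5.72 (exact permutation test, p = 0.395). Oocyte genes were mixed. Of 37 tested none was called, with a median of 0.23, and the summed value was 2181 to 5590 in control and 2442 to 4276 in light. Transient 2-cell genes were higher by estimate in 17 of 19, with a median of 1.03 and none called. Their summed value was 360 to 1216 in control (median 569) and 783 to 2030 in light (median 1260). In control 8-cell embryos the sum was 856 to 2202 (median 1089), above the control 4-cell median. In light 8-cell embryos it was 557 to 1280 (median 764). There 5 of 23 members were called lower in light and 0 higher, against 2.8% of all genes lower, and the median effect was -1.81. Tdpoz1, a member, was 0 to 20.5 in control and 7.74 to 72.1 in light (2.76 ± 0.78, adjusted p = 0.0647).

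The light effect was not the same at the neighbouring stages. A test of the difference between the 4-cell and the 2-cell effects called 627 of 20395 genes (limma interaction, 3.07%), and the 4-cell against the 8-cell effect 646 of 16987 (3.8%). Among the 218 called 4-cell genes, 56 had an effect that differed from the 2-cell one and 64 from the 8-cell one. The 218 were chosen by their 4-cell difference in the same libraries, which makes such differences between stages more likely. These 2 counts are therefore a description only. Earlier, in 2-cell embryos, 50 of them were called with the same sign and 2, Rps4x and Sssca1, with the opposite one, beside 10.1% of all genes called. Later, in 8-cell embryos, 23 had the same sign and 4 the opposite one (Ssr1, C2cd5, Mir6236 and Gm47096), beside 6.76% of all genes.

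Sap30, which was chosen by its 4-cell difference, carries the same limit. Its mean was 175 in control 2-cell, 7.56 in control 4-cell and 151 in control 8-cell libraries, and 354, 97.7 and 76.3 in the light libraries. The control 4-cell value was therefore low against both neighbours, and the light effect at the 4-cell stage was above that at the 2-cell stage by 2.64 ± 0.75 (adjusted p = 0.0426) and above that at the 8-cell stage by 5.39 ± 0.79 (adjusted p = 0.000131). Ssr1 went the other way, with means of 153 in control and 29.6 in light 4-cell libraries against 6.37 and 71.6 at the 8-cell stage, and its effect differed by -6.20 ± 0.87 (adjusted p = 0.000115).

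Ribosomal protein genes had other counts at the neighbouring stages. In 2-cell embryos 33 of 89 were called higher in light and none lower, against 5.66% and 4.47% of all genes. In 8-cell embryos 3 were higher, Rpl5, Rpl17 and Rps4l, and none lower, against 3.96% and 2.8% of all genes. The difference between the 4-cell and 2-cell effects was called for 31 members and that between the 4-cell and 8-cell effects for 18, all negative, with 0 of 89 positive at either stage, against 1.45% and 1.7% of all genes with a negative difference. The median sum in control was 9340 in 2-cell, 57079 in 4-cell and 20066 in 8-cell embryos. In light it was 13973, 29011 and 24997 in the same order. Some mitochondrially encoded genes were called lower in light at each stage, and none higher: 5 of 27 in 2-cell embryos (against 4.47% of all genes), 4 of 26 in 4-cell (0.333%) and 8 of 26 in 8-cell embryos (2.8%). The 5 were mt-Nd1, mt-Atp6, mt-Nd4, mt-Nd6 and mt-Te. For no gene of the list was the difference between stages called.

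**Figure D4:**
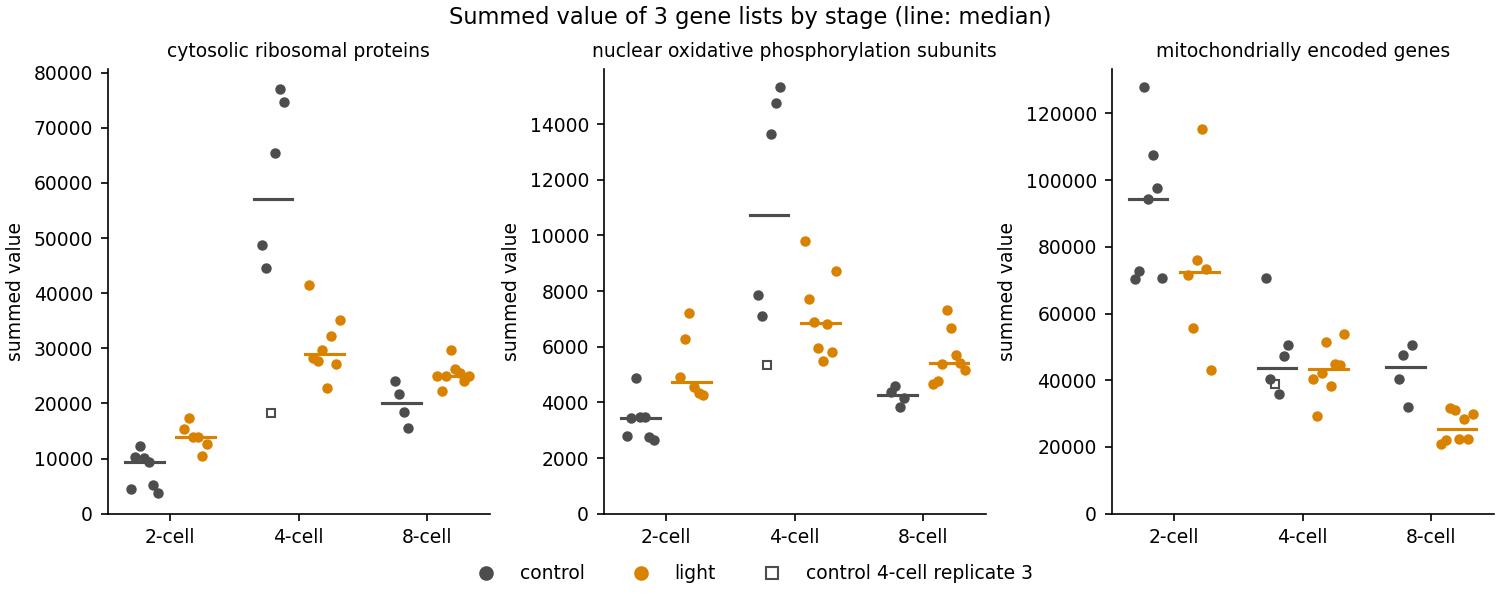
Summed value of 3 gene lists in each control and light library at the 2-, 4- and 8-cell stages, with a line at the median. Control 4-cell libraries other than replicate 3 (open square) reach the highest ribosomal protein sums, up to 76954 in single libraries, and the light 4-cell sums lie at 22783 to 41558.

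**Figure D5:**
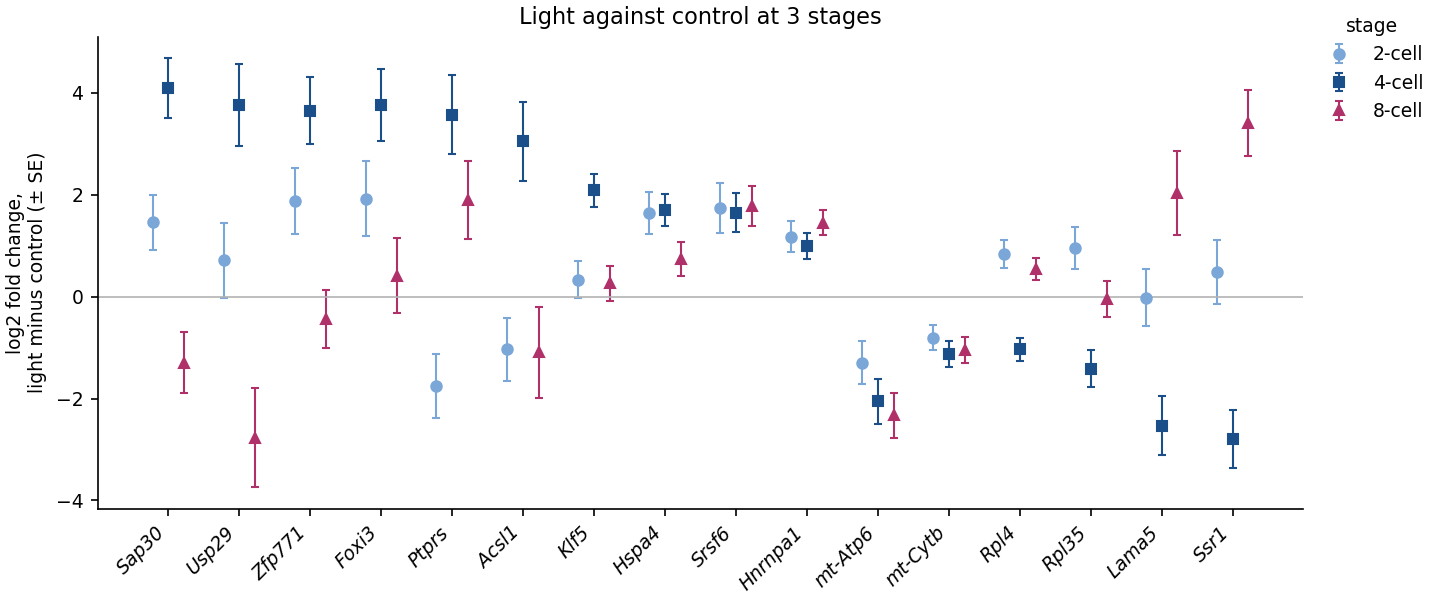
Log2 fold change (light minus control, ± SE) of 16 genes at the 2-, 4- and 8-cell stages. Sap30 and Ssr1 have their estimates on opposite sides of 0 in 4- and 8-cell embryos, while Srsf6, Hnrnpa1 and mt-Cytb have estimates on the same side of 0 in all 3.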

How the data were processed

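Single-cell SMART-seq2 libraries were analysed from 1 deposited table of values for 26414 genes. Per the labels, reads were aligned with HISAT2 to mm9 and counted with HTSeq 0.9.1. The deposited values are a signal, which the authors made by dividing reads by a size factor per library, although the study's methods describe RPKM. No division by length was found, and at least 99.96% of values in the 14 libraries were whole reads to within 0.01 of a read. Values plus 1 were taken to log2, a gene was kept if at least 3 libraries had more than 1, and limma 3.58.1 (trend) gave log2 fold changes, standard errors and Benjamini-Hochberg adjusted p-values. Genes were called at adjusted p under 0.05 and 2-fold. edgeR 4.0.16 and DESeq2 1.42.0 were run on the recovered reads. Python was used for exact permutation tests. limma recovered 38.5% of 200 genes changed 4-fold in simulated data, with 4 unchanged genes called and 0 in the wrong direction. Symbols matched GENCODE M21 for 26329 genes. Among the symbols 24 had been turned into dates. Columns of no sample numbered 0. Genes named in the text were the 12 largest rises and 12 largest falls that were also called without control replicate 3, left out if predicted or Y-linked, the called members of each list (up to 4, or the 2 with the smallest p where fewer than 2 were called) and genes named in the study's text. Other genes named beside small counts, and those under other observations, were chosen after their values were seen. The members and lists were chosen with earlier results of these data known. Replicates numbered alike (1, 5 and 6) were checked for pairing. Their deviations correlated at -0.05 to 0.07, so no pairing by number was seen. So few correlations cannot exclude a shared mating or batch. The closest 2 libraries of each group differed by more than sampling noise.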

Additional observations from a re-analysis of the deposited data

Results flagged for a closer look

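Of 168 groups of libraries tested, 17 had a library far from the rest. A rate of about 1 in 20 by chance need not hold here. Some groups were at 0 in all but 1 library, and the genes share the same libraries. Light replicate 6 had a Y-linked level of 283 CPM outside the ribosomal RNA genes, against 130 to 201 in the other light libraries, and light replicate 13 had the highest Xist value of the light group, 38.9. On the log2(value + 1) scale, control replicate 3 was far from the other controls for Rps20 (7.00), Rps9 (8.53), Rpl35 (6.62), Sssca1 (6.11), mt-Atp6 (5.31), Dhx35 (3.23), Klf5 (7.77) and Spata5l1 (2.14). Control replicate 5 was the 1 control above 0 for Nags (2.35) and Clip2 (5.55), and control replicate 4 for Pdk1 (0.98, which was 1 read). In the light group, replicate 1 was lowest for Nags (0), replicate 6 for Zfp771 (3.66), replicate 9 for Plekhg6 (0) and replicate 13 for mt-Cytb (10.3). The causes were not tested.

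The light effect differed between stages (limma interaction) for these genes named above, as log2 differences. Most were chosen by their 4-cell difference in the same libraries, which makes a difference between stages more likely. Against the 2-cell stage the 4-cell effect was higher for Ptprs (5.33), Acsl1 (4.08), Clip2 (3.79), Nags (3.59), Pdk1 (3.40), Sap30 (2.64) and Klf5 (1.76). It was lower than at the 2-cell stage for Sssca1 (-3.56), Ssr1 (-3.27), Rpl35 (-2.38) and Rpl4 (-1.87). Against the 8-cell stage it was higher for Usp29 (6.53), Zim3 (5.40), Sap30 (5.39), Acsl1 (4.14), Zfp771 (4.10), Zfp622 (3.53), Foxi3 (3.35), Zfp428 (3.35) and Klf5 (1.83). It was lower than at the 8-cell stage for Ssr1 (-6.20), Lama5 (-4.57), Oas1h (-3.26), Mettl1 (-3.01), Rpl4 (-1.57) and Rps9 (-1.29).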

How the results depend on the processing

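The count of called genes depended on both the libraries and the processing. It was 218 with all 14 libraries, 65 to 771 with 1 library left out (65 without control replicate 5, 771 without control replicate 3), and it moved by over 1.5 times without control replicate 4 (142) or any light library (88 to 125). Without control replicates 1, 2 and 3 it was 1291, an alternative chosen after seeing the data, as was leaving out replicates 1 and 2. A pseudocount of 0.1 gave 136, no filter 53, library weights 353, 1 fit of all 67 libraries 742 and DESeq2 742. The median ratio (314), quantile (326), CPM (326) and edgeR (148) alternatives stayed within 1.5 times, though lower genes were 45.9% of the edgeR and 33.4% of the quantile calls, against 22.9% here. A Wilcoxon test called 0 genes (2234 at an unadjusted p under 0.05). With the replicate block over numbers 1, 5 and 6 limma called 0 (1572 at unadjusted p under 0.05), and the same 6 libraries without the block 0 (1703). Pairing by number was not seen, though it is not excluded. The difference from the 2-cell stage was called for 407 genes with a pseudocount of 0.1 and 965 without control replicate 3, and from the 8-cell stage for 971 without it. The stage position kept its direction and threshold in all other alternatives (-7.62 to -13.3 in those planned), except that over rising genes alone it was -5.72 (p = 0.395, exact permutation test). Y-linked CPM differed by -52.6 without control replicates 1 and 2, reversed from 24.2, and Eif2s3y reversed from 1.54 to -0.30 without them and -0.97 without replicate 3 as well. Ctnnbl1, at 0.10, reversed to -0.0063 with library weights, -0.043 over the block libraries with or without the block, -0.059 without control replicates 1 and 2 and -0.13 without replicate 3 as well. Of the 48 called genes that the naming rule chose, 14 were called whichever library was left out and none reversed. The causes were not tested. The shallowest library, light replicate 14, held 377385 reads outside the ribosomal RNA genes and 10469 detected genes.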

Other observations

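Outside the groups above, some genes were called higher in light whichever library was left out; those given here were chosen after their values were seen. Gata4, a transcription factor of primitive endoderm and heart, was 39.1 to 223 in control (median 67.2) and 173 to 549 in light (median 303), a difference of 1.90 ± 0.37 (limma adjusted p = 0.0143). Klf2, a relative of Klf5, was 24.6 to 227 in control (median 130) and 207 to 522 in light (median 404), a difference of 2.05 ± 0.43. Epcam, an epithelial adhesion molecule, had a control median of 16.5, with 3.28 as the lowest value, and was 47.3 to 152 in light, without overlap (2.69 ± 0.52). Nlrp9c, of a gene family known from the egg, was 0 to 5.75 in control (median 1.83) and 16.2 to 67.9 in light (median 27.6), also without overlap. Trim27, a ubiquitin ligase, rose by 2.02 ± 0.38. Atg3, an enzyme of autophagy, was 43.5 to 124 in control and 129 to 402 in light, and neither gene overlapped between the groups. Each of these 6 genes was also called without control replicates 1 and 2. Lars2, the mitochondrial leucyl transfer RNA synthetase, went the other way, at 2088 to 8082 in control (median 6042) and 1397 to 3164 in light (median 2196), a fall of 1.34 ± 0.26 (adjusted p = 0.0141). That control median was above those of the ribosomal protein genes Rpl41 (2651) and Rplp0 (2055). Whether all reads assigned to Lars2 come from its messenger RNA was not tested.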
